A study of Mus musculus with 10 samples.

Results

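Gene-body GR sites gained in starvation are places inside genes where the glucocorticoid receptor (GR) had a peak in skeletal muscle of starved mice and no GR or LSD1 peak was listed in fed mice. They were chosen by the peak calls themselves. A peak of the GR starved list was taken when its midpoint lay in a RefSeq exon or intron, when it lay in no promoter (the stretch from 1000 bp before to 100 bp past a transcription start, TSS), and when it shared no base with any peak of the GR fed or LSD1 fed list. The rule found 14442 sites, which is 38.2% of the 37783 GR starved peaks and 72.7% of the 19858 GR starved peaks with a midpoint in a gene body. The 8 peak lists of the study held 365066 peaks in all. Since the rule used presence in the starved list and absence from the fed lists, the gain itself is a description, and peak height, q-value and number carry no test.

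Limb skeletal muscle came from C57BL/6J mice (male, per the study's methods) that were either fed or food-deprived for 24 h. Their age is 10 weeks by the labels, and the study's own text differs on it. In each state 1 library was made by chromatin immunoprecipitation and sequencing (ChIP-seq) for GR, 1 for the lysine demethylase LSD1, 1 each for mono- and dimethylated lysine 9 of histone H3 (H3K9me1 and H3K9me2), and 1 for input chromatin. With 1 library per group no comparison between fed and starved muscle could be tested, and a site that was missed in the fed library cannot be told apart from a site that was empty in fed muscle. Both GR libraries carry the same library code in the labels, whereas the fed and starved libraries of each histone mark carry different codes, so code and feeding state cannot be told apart for the marks. Muscle nuclei still include those of vessels, nerves and satellite cells. Promoters of 8 of 12 muscle fibre marker genes had a GR fed peak and 9 had a GR starved peak, against 0 and 2 of 25 markers of other cell types, 0 and 0 of 13 liver markers, and 4180 and 7567 of all 26180 genes. An LSD1 starved peak was at 8 of the 12, 2 of the 25 and 2 of the 13 promoters, and at 4754 of all.

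GR is a nuclear receptor that enters the nucleus and binds DNA once a glucocorticoid hormone is bound to it. Hormone levels rise during food deprivation, and in muscle GR is known to switch on genes of protein breakdown such as Trim63 (MuRF1) and Fbxo32 (atrogin-1), together with FoxO factors. As a dimer, GR contacts an inverted repeat, the glucocorticoid response element (GRE, here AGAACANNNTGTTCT), and many such elements lie in introns far from a promoter. GR also reaches DNA beside or through other factors, among them AP-1, and LSD1 removes methyl groups from lysines of histone H3.

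The sequences below show what the strongest gained sites with a GRE-like sequence look like, each as 105 bases of the plus strand of GRCm38 (mm10), 5′ to 3′, with the GRE-like part in capitals. GRE-like here means at most 1 mismatch over the 12 fixed bases, on either strand (the element reads the same on both). Each is followed by its difference from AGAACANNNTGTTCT, with positions counted from 1 at the 5′ end of the element. A match is a description of the letters and not a measured binding site.

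Mir1a-1hg (chr2:180387469-180387573): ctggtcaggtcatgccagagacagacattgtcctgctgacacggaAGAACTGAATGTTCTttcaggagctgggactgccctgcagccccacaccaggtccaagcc
Rab30 (chr7:92818103-92818207): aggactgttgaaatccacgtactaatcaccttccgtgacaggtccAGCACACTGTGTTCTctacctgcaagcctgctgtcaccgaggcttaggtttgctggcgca
Asb11 (chrX:164441975-164442079): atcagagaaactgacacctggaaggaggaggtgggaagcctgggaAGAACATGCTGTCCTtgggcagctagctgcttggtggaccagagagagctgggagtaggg
Jazf1 (chr6:52825853-52825957): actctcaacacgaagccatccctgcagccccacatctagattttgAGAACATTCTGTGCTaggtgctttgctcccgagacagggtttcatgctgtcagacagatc
Eps8 (chr6:137487502-137487606): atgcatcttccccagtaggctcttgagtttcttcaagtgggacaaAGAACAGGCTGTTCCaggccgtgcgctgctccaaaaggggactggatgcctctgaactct
Tnxb (chr17:34676789-34676893): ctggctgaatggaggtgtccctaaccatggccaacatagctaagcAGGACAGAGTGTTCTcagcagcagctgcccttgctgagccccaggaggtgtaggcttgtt
Gm16712 (chr17:55957321-55957425): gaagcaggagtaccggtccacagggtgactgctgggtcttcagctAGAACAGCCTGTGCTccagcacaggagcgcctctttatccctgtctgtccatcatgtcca
Epas1 (chr17:86791831-86791935): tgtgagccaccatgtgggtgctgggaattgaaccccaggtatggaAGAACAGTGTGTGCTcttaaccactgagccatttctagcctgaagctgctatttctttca

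The single change was A6T in Mir1a-1hg, A3C in Rab30, T13C in Asb11, A3G in Tnxb and T15C in Eps8, and T13G in each of Jazf1, Gm16712 and Epas1. The window in the noncoding gene Mir1a-1hg runs into a RefSeq exon, whose transcript was not read, and the other windows lie wholly in introns. The Epas1 peak was 61.2% repeat sequence.

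A further set shows motifs that were more frequent in the tallest gained sites than in their flanks, each as 61 bases with the motif in capitals: TGTTTAC, the letters bound by FoxO factors (FOXO), TGANTCA, the AP-1 element bound by Fos and Jun proteins, and CAGCTG, the E-box bound by myogenic factors such as MyoD. These examples were chosen after their values were seen. In Pde4d a FOXO and an AP-1 motif lie 2 bases apart.

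Pde4d FOXO and AP-1 (chr13:109503050-109503110): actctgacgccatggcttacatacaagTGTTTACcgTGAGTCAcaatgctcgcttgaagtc
Zeb2 FOXO (chr2:45049807-45049867): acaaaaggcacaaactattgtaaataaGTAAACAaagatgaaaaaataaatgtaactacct
Anp32a FOXO (chr9:62355612-62355672): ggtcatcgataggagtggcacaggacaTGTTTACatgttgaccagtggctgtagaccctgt
Ank AP-1 (chr15:27477895-27477955): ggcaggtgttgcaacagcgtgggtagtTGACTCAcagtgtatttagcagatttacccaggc
Mitf AP-1 (chr6:97848410-97848470): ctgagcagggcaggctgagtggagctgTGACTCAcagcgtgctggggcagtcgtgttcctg
Gm32817 AP-1 (chr16:13456519-13456579): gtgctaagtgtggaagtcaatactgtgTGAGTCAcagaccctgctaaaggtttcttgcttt
Ank E-box (chr15:27477862-27477922): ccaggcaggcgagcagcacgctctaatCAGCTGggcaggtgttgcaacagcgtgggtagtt
Atp6v1e1 E-box (chr6:120799723-120799783): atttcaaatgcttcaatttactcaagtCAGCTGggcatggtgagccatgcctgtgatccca
Speg E-box (chr1:75395140-75395200): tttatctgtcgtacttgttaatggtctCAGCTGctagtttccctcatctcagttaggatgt

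Peak heights of the gained sites were low and uniform. Height is the fold enrichment over input that MACS2 gives. Over the 14442 gained sites the fold ran from 1.32 to 5.97 with a median of 2.66 (quartiles 2.57 and 2.81), whereas the 4362 gene-body sites that overlapped a GR fed peak, called kept sites here, had a median of 3.05 and a maximum of 14.9. Only 11 gained sites reached a fold of 5 (0.0762%, against 1.82% of all GR starved peaks and 8.39% of kept sites), and 1482 reached 3 (10.3%, against 53.7% of kept sites). A q-value of 0.01 or less was listed for 2820 gained sites (19.5%, against 34.7% of all GR starved peaks and 71.9% of kept sites), and their median q was 0.0351. The median length was 285 bp against 404 bp for kept sites. The mirror set, 2477 gene-body GR fed peaks with no GR or LSD1 starved peak, had a median fold of 3.16 and a maximum of 9.46, in a library whose read depth is not given here. The 9188 gained sites outside genes were as low as those inside, with a median of 2.65. Because height and q-value decide whether a peak is listed at all, these differences describe the rule's members and do not compare binding in the mice.

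**Figure D1:**
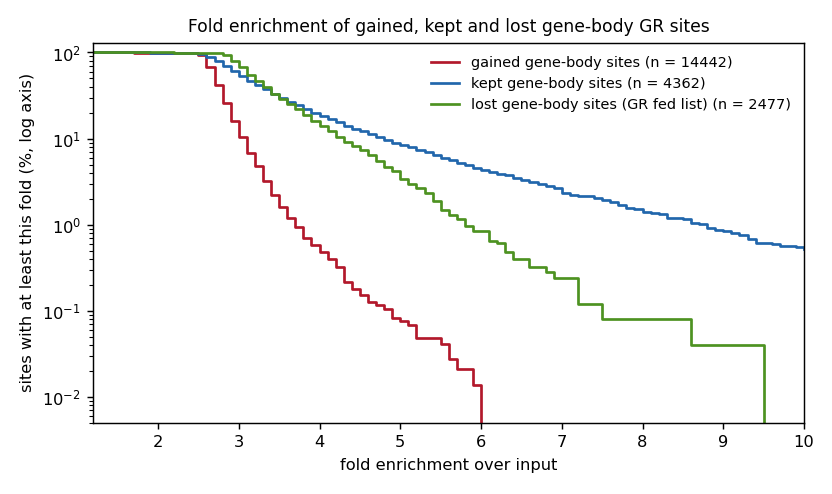
Share of sites (y axis, %, log scale) with at least the fold enrichment over input on the x axis (drawn up to 10), for gained and kept sites of the GR starved list and lost sites of the GR fed list. The line of the gained sites (median 2.66, maximum 5.97) falls off first, before those of the lost sites (median 3.16, maximum 9.46) and the kept sites (median 3.05, maximum 14.9).

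At the edge of the rule, members and non-members had like heights. Peaks in Dusp10 (fold 2.70), Msi2 (2.52) and Prkce (2.88) abut a fed peak without sharing a base and so are members. Peaks in Tns1 (2.68), Rbfox2 (3.31) and Fut10 (3.12) share 1 base with a fed peak and so are not. In all, 25 members had a fed peak within 10 bp and 162 within 100 bp, and 30 of the 5416 gene-body GR starved peaks left out shared at most 10 bases with a fed peak.

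The tallest gained site lay in intron 1 of Ank, a membrane transporter that controls extracellular pyrophosphate (chr15:27477634-27477939, GRCm38, fold 5.97, q 1.61e-17). It was 11.1 kb from the TSS and 1.25 kb from the nearest GR fed peak. Next came intron 7 of Atp6v1e1, a subunit of the proton pump that acidifies lysosomes (chr6:120799515-120799788, fold 5.93), where an LSD1 starved peak was also listed. Intron 2 of Acss1, the mitochondrial acetyl-CoA synthetase, had a fold of 5.81. Intron 1 of Mitf, a transcription factor of the family that controls lysosome genes, had 5.63 (chr6:97848105-97848516) and also lay in an H3K9me2 fed peak. These sites lay 11.1 to 41.3 kb from the TSS. Znhit1, a subunit of a chromatin remodelling complex, had a fold of 5.60, and the predicted noncoding gene Gm32817 had 5.59. Rftn1, a lipid raft protein, had 5.44 and the deubiquitinase gene Usp13 had 5.18. Intron 6 of Speg, a kinase of the muscle triad, had 5.14 (chr1:75394815-75395188), 1.37 kb from a GR fed peak. Intron 3 of Pde4d, a phosphodiesterase that breaks down cAMP, had 5.11 (q 3.07e-11), 849 kb from the TSS of the longest transcript and with an LSD1 starved peak. All of these sites are intronic, and the distance to the nearest GR fed peak ranged widely, from 1.25 kb in Ank to 74.6 kb in Rftn1.

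Sites with a GRE-like sequence were rare. It was found in 41 of 14440 gained sites on the assembled chromosomes (0.284%, 95% exact binomial interval 0.204 to 0.385), against 0.712% of all GR starved peaks. To give a local reference, windows of the same length were read 5 kb to either side of each site, leaving out windows that overlap a GR starved peak. For the lost sites, windows that overlap a GR fed peak were left out instead. The flanks of the gained sites held a GRE-like sequence in 57 of 27149 cases (0.210%, 0.159 to 0.272), and the intervals overlap. Kept sites held one in 107 of 4362 cases (2.45%, 2.01 to 2.96, flanks 0.367%), and lost sites in 68 of 2477 (2.75%, 2.14 to 3.47, flanks 0.124%). Over all 14440, gained sites held GRE-like sequences at a share close to their flanks. The share was 0.709% (0.434 to 1.09) for gained sites with a q of 0.01 or less, the threshold in the study's methods. It was 3.14% for those with a q of 1e-05 or less. No share is given for the flanks of these stricter sets alone, so whether they differ from their own flanks was not tested. Intervals cover counting error only, and neighbouring peaks of 1 library are not independent. Of the 41 sites 38 were intronic and 3 exonic, they lay in 40 genes, 20 had a q of 0.01 or less, and 20 had the element within 50 bp of the peak's midpoint. The only exact match to all fixed bases was in an intron of 6030407O03Rik (chr1:73805162-73805380, fold 3.18, q 0.00164).

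The tallest GRE-like site was in Mir1a-1hg, the host gene of the muscle microRNA miR-1a-1 (chr2:180387402-180387641, fold 5.07, q 1.51e-11), where the element printed above sits exactly at the midpoint, 1.92 kb from the TSS. Rab30, a small GTPase of the Golgi, followed with a fold of 4.35. Asb11, an adaptor of a ubiquitin ligase expressed in muscle, had 4.03, and an LSD1 starved peak was listed there. Jazf1, a zinc finger protein, had 3.98, Eps8, an actin regulator, had 3.77, and Tnxb, the matrix protein tenascin X, had 3.52. The predicted gene Gm16712 had 3.48 and Epas1, which encodes the hypoxia factor HIF-2α, had 3.43. In 7 of these 8 sites the element centre lay within 52 bp of the midpoint, and in Jazf1 it lay 107 bp away.

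Other short motifs were read in the same way. Across all gained sites the E-box was found in 23.6% against 15.3% of flanks, AP-1 in 11.0% against 8.44%, the KLF motif CCACACCC in 4.25% against 3.05%, the NRF1 motif in 0.783% against 0.302% and the Six-factor motif MEF3 in 0.665% against 0.383%. The single GR hexamer AGAACA (23.8% against 24.6%), FOXO (3.91% against 3.88%), C/EBP (10.7% against 11.4%), STAT5 (7.74% against 8.75%), ERR (0.900% against 1.01%) and the TEAD motif MCAT (6.28% against 6.88%) were not more frequent in the sites than beside them. MEF2, the motif of the muscle MEF2 factors, was in 0.679% of gained sites (flanks 0.519%) and in 3.46% of kept sites (flanks 0.810%). The gained sites had a median GC content of 51.8% and their flanks 46.5%, and 16.7% against 24.9% of repeat sequence. The part of base composition in these differences was not tested.

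The motif content differed with peak height. From a fold of 3.5, a bound set after the values were seen, there were 234 gained sites (1.62% of all) in 222 genes, 217 of them in introns and 17 in exons. AP-1 was in 26.5% of these (21.0 to 32.6) against 8.51% of their flanks, and in 10.2%, 10.1% and 16.7% of the gained sites with a fold below 2.5, from 2.5 to 3 and from 3 to 3.5. FOXO was in 11.1% (7.39 to 15.9) against 2.53% of flanks, and in 3.65%, 3.69% and 4.89% of the lower bands. The E-box was in 34.2% (flanks 14.9%) and the hexamer AGAACA in 38.0% (flanks 25.5%). The tall gained sites were thus richer in AP-1, FOXO, E-box and AGAACA letters than the flanks. A small number held a GRE-like sequence (2.56%, 0.947 to 5.50, flanks 0.920%, 0.251 to 2.34), and these intervals overlap. At least 1 of AP-1, E-box and FOXO was in 133 of the 234 sites (56.8%). AP-1 and E-box occurred together in 23 sites, E-box and FOXO in 9, and AP-1 and FOXO in 5.

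**Figure D2:**
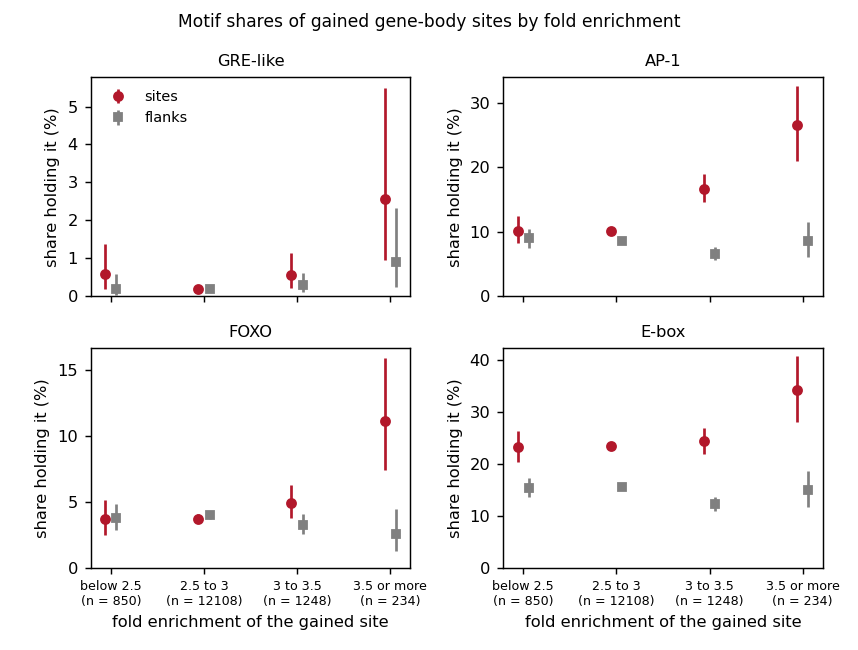
Share of gained gene-body sites (red circles) and of their flanks (grey squares) holding each of 4 motifs (y axis, %, with 95% exact binomial intervals) in 4 bands of fold enrichment over input (x axis). AP-1 was in 10.2% of the sites of the lowest and 26.5% of the highest band, and FOXO in 3.65% and 11.1%, while the E-box was above its flanks in every band.

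Tall kept and lost sites are the nearest comparison. Of 1294 kept sites with a fold of 3.5 or more, 23.6% held AP-1 (flanks 14.1%) and 11.4% FOXO (flanks 6.44%). Of 723 such lost sites 5.95% held AP-1 (4.34 to 7.93, flanks 5.14%) and 3.32% FOXO (flanks 2.82%), while 6.09% held a GRE-like sequence, against 4.71% of tall kept sites. C/EBP was in 17.9% of gained, 20.4% of kept and 7.61% of lost sites of this height. Median lengths differed (254 bp for gained, 426 bp for kept and 176 bp for lost sites), so the central 200 bp were read as well. In these AP-1 was in 18.4% of gained (13.6 to 23.9), 11.1% of kept and 5.53% of lost sites (3.98 to 7.46). FOXO was in 5.98% of gained (3.31 to 9.83), 4.64% of kept and 3.32% of lost sites (2.14 to 4.90), and these intervals overlap. For AP-1 the intervals of gained and lost sites do not overlap, and for FOXO at fixed length they do. GRE-like sequences in the central 200 bp were in 2.14% of gained (0.697 to 4.92) and 2.47% of kept sites (1.70 to 3.47). These intervals overlap, and the share of lost sites was 6.22% (4.58 to 8.24). The 142 gained sites outside genes with this height held AP-1 in 38.7% and FOXO in 12.7%, so neither motif was limited to gene bodies. Genes with a tall FOXO-bearing gained site include Pde4d, Zeb2, a zinc finger repressor, Jak1, a kinase of cytokine receptors, Il6ra, the interleukin 6 receptor, Etfa, an electron carrier of fat oxidation, and Kcnj2, a potassium channel of muscle.

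**Figure D3:**
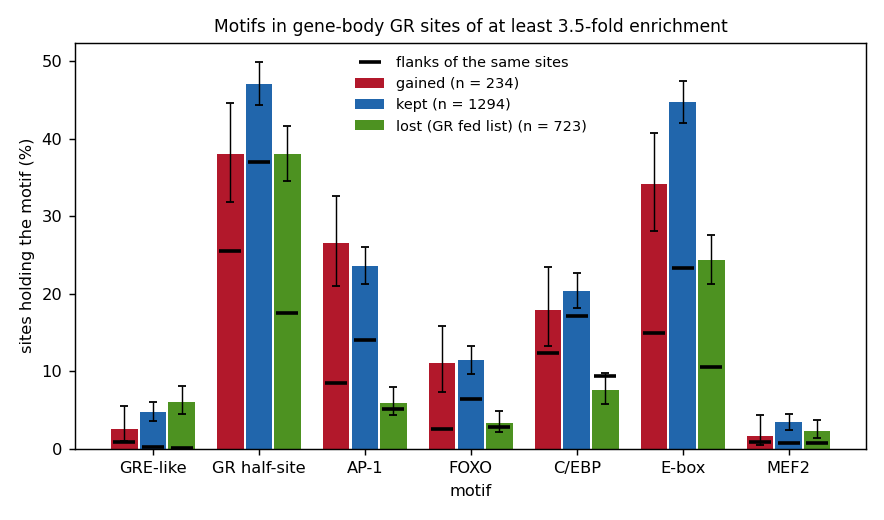
Share of gained, kept and lost gene-body sites with a fold of 3.5 or more that hold each motif (y axis, %), as bars with 95% exact binomial intervals and a black mark at the share of their flanks. The GR half-site is AGAACA. AP-1 was in 26.5% of gained, 23.6% of kept and 5.95% of lost sites, and GRE-like sequences in 2.56%, 4.71% and 6.09%. The sites differ in length, and in their central 200 bp the GRE-like shares were 2.14%, 2.47% and 6.22%.

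LSD1 starved peaks, which the rule did not use, overlapped 799 gained sites (5.53%, 5.17 to 5.92). The deposited LSD1 starved list holds 66332 peaks, many more than the study's text describes, and with only its peaks of q 0.01 or less the share was 1.00%. With the whole list the share was below the 14.7% of all GR starved peaks and the 24.0% of kept sites (22.7 to 25.3), and above the 1.80% of the flanks (1.65 to 1.97). Kept sites may lie on an LSD1 fed peak while gained sites may not, so the rule bears on that contrast. Limited to the central 200 bp the shares were 4.09% and 15.6%, and limited to sites with a fold from 2.5 to 3 they were 4.29% and 21.3%. The LSD1 starved peaks at gained sites had a median fold of 3.35, against 3.44 over the whole LSD1 starved list, and a median length of 141 bp against 103 bp. Of them 18.6% had a q of 0.01 or less, against 17.7% of those at kept sites and 10.2% of the whole list. By GR height the share was 17.9% below a fold of 2.5, 4.29% from 2.5 to 3, 8.09% from 3 to 3.5, 10.9% from 3.5 to 4 and 13.0% (9 of 69) from 4, so that it was higher in each band from 2.5 up and highest in the lowest band. The overlapped sites of smallest GR q-value were those in Atp6v1e1, Pde4d and Zeb2 (fold 4.71, q 5.51e-10). Exonic and intronic gained sites were overlapped at like shares (6.29% and 5.41%).

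The low end of the height range stood apart. Below a fold of 2.2 lay 129 gained sites (0.893%), of which 79 (61.2%) had an LSD1 starved peak and 62 (48.1%) a q of 0.01 or less, and 73 were in 10 genes. Sfi1, a centrin-binding spindle protein, held 32 of them at folds of 1.52 to 2.12, of which 31 had an LSD1 starved peak, 18 an H3K9me2 fed peak and 17 an H3K9me2 starved peak. Mroh2a held 12 and Hjurp, a centromere histone chaperone, 8. Several lists that were made with different antibodies had peaks at these same places, and how far read mappability plays a part was not tested. Of the 160 gained sites with a q of 1e-05 or less, 14 had a fold below 2.5, all 14 had an LSD1 starved peak, and without them 15.8% (23 of 146) had one.

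Peaks of H3K9me2, a mark of silent chromatin that LSD1 is known to remove with some partners, covered few gained sites. H3K9me2 fed peaks overlapped 1031 of them (7.14%, 6.72 to 7.57, flanks 4.60%), against 13.2% of all GR starved peaks and 15.2% of kept sites. Kept sites are longer, and limited to the central 200 bp these shares were 5.17% for gained sites, 9.04% and 8.53%. H3K9me2 starved peaks overlapped 117 (0.810%, 0.670 to 0.970, flanks 0.0553%), against 1.17% of all GR starved peaks and 0.321% of kept sites. By height, 7.65% of gained sites below a fold of 2.5 had an H3K9me2 starved peak and 0.355% of those from 2.5 to 3. H3K9me1 fed peaks overlapped 122 (0.845%, flanks 0.350%, all GR starved peaks 1.64%), and H3K9me1 starved peaks overlapped 315 (2.18%, 1.95 to 2.43, flanks 0.858%, all GR starved peaks 2.99%). The fed and starved lists of each mark differ in size and library code, so these shares are given side by side and are not a change in the mark. In each of the 5 lists the share at gained sites was above that of their flanks and below that of all GR starved peaks. Gained sites outside genes had shares of 6.98% for LSD1 starved, 7.76% for H3K9me2 fed and 2.33% for H3K9me2 starved peaks.

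**Figure D4:**
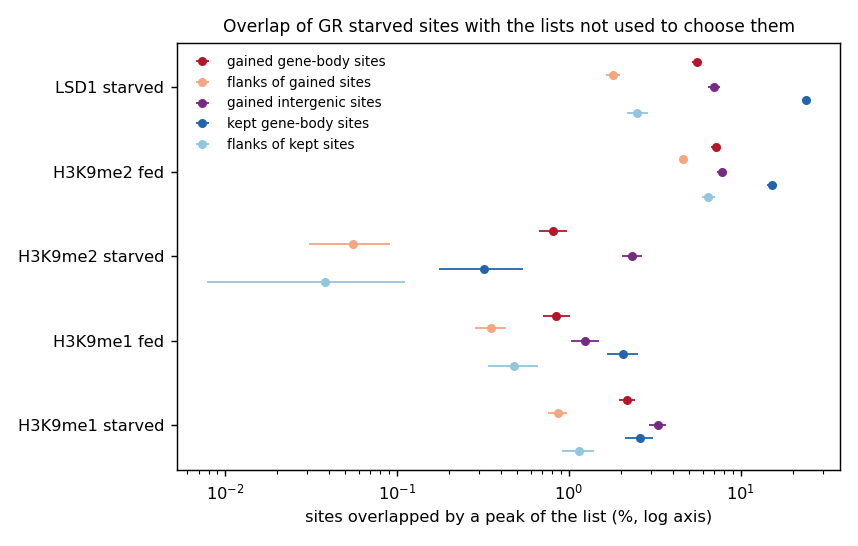
Share of GR starved sites or flanks overlapped by at least 1 base (x axis, %, log scale) by the peaks of each list that did not choose them (y axis), as points with 95% exact binomial intervals. Gained gene-body sites had LSD1 starved peaks in 5.53%, their flanks in 1.80% and kept sites in 24.0%.

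Within genes the gained sites were mostly intronic, with 12390 in introns (85.8%) and 2052 in exons (14.2%, 13.6 to 14.8). Exons make up 6.57% of gene-body bases outside promoters. In the longest transcripts 33.4% of intronic sites were in intron 1, which holds 27.1% of intron bases, against 38.3% of kept sites. Exonic gained sites were at the far end of genes more often than kept ones: 40.6% of them (765 of 1882, 38.4 to 42.9) lay in the last exon against 26.2% of kept ones (134 of 511, 22.5 to 30.3), and 13.1% against 48.3% lay in exon 1. The share of exon bases in last exons was not read, and the rule removes sites on fed peaks. This is therefore a contrast with kept sites only. The median distance to the nearest TSS was 14.4 kb (kept sites 13.7 kb), with 13.5% under 2 kb, 27.0% from 2 to 10 kb, 41.0% from 10 to 50 kb and 18.5% beyond. A GR fed peak lay within 1 kb of 5.45%, within 10 kb of 35.3% and within 100 kb of 83.2% of gained sites, and the median distance was 19.4 kb, against 44.4 kb for gained sites outside genes. The gained sites lay near each other as well, with another one within 5 kb in 4334 cases and within 20 kb in 8760 (60.7%).

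The X chromosome held 21 gained sites (0.145%, 0.0900 to 0.222), 0.473 per Mb of gene sequence against 14.5 on the autosomes. It holds 4.27% of gene sequence and was thinly covered by every list, with 0.498% to 1.43% of the peaks. The tallest of the 21 was the Asb11 site above, and Smpx, a small muscle protein, had 1 at a fold of 2.76.

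A gained site lay in 7126 of 26180 annotated genes (27.2%), and one with a q of 0.01 or less in 2102 (8.03%). Most of these genes held few: 4123 had 1 site (57.9%), 613 had 5 or more and 111 had 10 or more. The midpoint lay in more than 1 gene for 312 sites (2.16%), which count for each gene. Genes with a gained site were longer (median 36.0 kb) than the others (8.82 kb). The share of genes with one was 10.3% below 10 kb, 28.5% from 10 to 30 kb, 42.7% from 30 to 100 kb, 65.4% from 100 to 300 kb and 78.3% above, while the number per 100 kb was 3.24 in the shortest and 0.555 in the longest band. Long genes therefore held more sites in number and fewer per length. In each length band the genes whose promoter had a GR fed peak held more, with 5.39 against 2.88 sites per 100 kb below 10 kb, 2.43 against 1.45 from 30 to 100 kb and 1.36 against 0.479 from 300 kb. Of the genes with a gained site 25.1% had a GR fed promoter peak (12.6% of other genes), 25.7% had a kept site (4.41% of others), and 59.5% (4239) had neither.

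The most gained sites were in Snhg14, a long imprinted noncoding RNA (55 over 1177 kb, folds 2.01 to 3.41, 25 with an LSD1 starved peak, and a mean repeat content of 65.0%). After Sfi1 came the zinc finger gene Zfp978 (29), Rora, a nuclear receptor of the clock (29 at folds 2.51 to 3.19, 2 with an LSD1 starved peak), and the predicted gene Gm38510 (28). Sites with a q of 0.01 or less numbered 21 in Snhg14, 30 in Sfi1, 10 in Zfp978, 2 in Rora and 8 in Gm38510. Per length the densest were Gm17019 (73.9 per 100 kb), Speer4d (62.9) and Mepce (62.6), the 7SK RNA capping enzyme, with 3 sites each. Of these genes Rora alone had a GR fed promoter peak.

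The gene lists are read against 27.2% of genes with a gained site and 1.40 sites per 100 kb over all genes, and against 28.5% for genes of 10 to 30 kb, 42.7% for 30 to 100 kb and 65.4% for 100 to 300 kb. In these length bands, in the same order, the density was 2.31, 1.66 and 1.33 sites per 100 kb. For a list of short genes this is a nearer reference than 1.40. A gained site with a q of 0.01 or less was in 8.03% of all genes. Of 29 genes of excitation-contraction coupling and calcium handling 21 held at least 1 and 11 held one with a q of 0.01 or less (72.4% with a site, 78 sites, 2.78 per 100 kb, median length 21.1 kb). Ryr1, the calcium release channel, had 13 at folds of 2.49 to 3.21, and Jph1, which ties the triad membranes together, had the tallest at 4.29. Of 29 genes of calcium-dependent kinases, calcineurin and NFAT (median 107 kb) 23 held a site (79.3%, 2.51 per 100 kb), led in number by Prkce (16) and in height by Ppp3ca, the calcineurin catalytic subunit (3.74). Nfatc1, the calcium-dependent factor of slow fibres, had 14. In the sarcomere and Z-disc list 24 of 42 genes (57.1%, median 22.8 kb) held 109 sites (5.85 per 100 kb), among them the giant spring Ttn (15), Neb (11) and Myom1, with the tallest at 3.95. The dystrophin and costamere genes held one in 19 of 23 cases (82.6%, median 104 kb) but at a lower density (0.972 per 100 kb), with 14 in Ank3 and the tallest in Vcl (3.40). A site with a q of 0.01 or less was in 15 of the 29 calcium-dependent kinase, calcineurin and NFAT genes. The sarcomere and Z-disc list had 12 such genes and the dystrophin and costamere list 8.

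The lists of growth signalling and protein breakdown genes were read in the same way. In the insulin, IGF1 and mTORC1 list 26 of 35 genes had at least 1 (74.3%, 2.86 per 100 kb, median 77.2 kb), with 15 in Rptor, the mTORC1 scaffold, and the tallest in Irs1, the insulin receptor substrate (4.83). Of 30 muscle ubiquitin ligases and ubiquitin genes 19 had one (63.3%, 3.71 per 100 kb, median 35.7 kb), and all 19 also had GR there or at the promoter in fed muscle. Fbxo32 held 13 at folds of 2.32 to 3.16, Trim63 5 at 2.58 to 3.19, and Nedd4l the tallest at 4.14. The q-values ran from 0.00184 to 0.0830 in Fbxo32 and from 0.000813 to 0.0371 in Trim63. Of 39 proteasome subunit genes, which are short (median 12.4 kb), 13 held 17 sites in all (33.3% of the genes, 2.09 per 100 kb), and the tallest was in Psmb7 (3.15). These values were near those of all genes of 10 to 30 kb (28.5% and 2.31 per 100 kb). In the autophagy and FoxO list 17 of 29 genes had one (58.6%, 2.43 per 100 kb, median 34.7 kb), with 9 in Foxo3 (2.55 to 2.91), 5 in Foxo1 and the tallest in Mitf. Bnip3, a receptor of mitophagy, had 2 (2.85 and 3.19) and Gabarapl1 1 (q 0.0342). The q-values in Foxo3 ran from 0.00641 to 0.0704. A site with a q of 0.01 or less was in 15 of the 35 insulin, IGF1 and mTORC1 genes and 8 of the 30 ubiquitin genes. The proteasome list had 2 such genes of 39 and the autophagy and FoxO list 7 of 29.

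In the fuel switch list 24 of 36 genes had a gained site (66.7%, 3.89 per 100 kb, median 22.4 kb), with 9 in Ppargc1b, a coactivator of mitochondrial genes, 9 in Lpin1, a phosphatidate phosphatase, and 7 within the 16.5 kb of Lipe, the hormone-sensitive lipase. Its tallest was in Esrrg (3.77), a nuclear receptor of oxidative fibres. Pdk4, which blocks pyruvate entry to the mitochondria, had 2, and Ppargc1a had 0. Of 25 classic glucocorticoid targets 14 had one (56.0%, 57 sites, 6.09 per 100 kb, median 14.5 kb), with 13 in Zbtb16 (tallest 3.48), 4 in Klf9, 3 in Klf15, 2 in Per1, 1 in Fkbp5 and 0 in Tsc22d3. Fbxo32 and Trim63 are in this list too. Of 20 clock genes 12 had one (3.40 per 100 kb, median 32.7 kb), led by Rora. Of 22 myogenic factors 16 had one (72.7%, 2.92 per 100 kb, median 90.3 kb), with 15 in Tead1, 13 in Nfix and 13 in Sox6 (tallest 3.52). In the neuromuscular junction list 10 of 19 genes did (52.6%, 1.40 per 100 kb, median 30.8 kb), with 5 in Dok7 and 4 in Musk. Among GR, LSD1 and their coregulators 18 of 28 had one (64.3%, 2.01 per 100 kb, median 78.6 kb), with 15 in Hdac4, a histone deacetylase (tallest 3.71), and the genes of GR itself (Nr3c1) and LSD1 (Kdm1a) had 0. A site with a q of 0.01 or less was in 12 of the 36 fuel switch genes and 7 of the 25 classic targets. It was in 4 of the 20 clock genes, 6 of the 22 myogenic factors, 4 of the 19 junction genes and 7 of the 28 coregulators.

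Lists for reference show how far length carries such counts. Of 20 long genes known from brain 17 held a gained site (85.0%), yet at 0.172 per 100 kb and a median length of 1301 kb, with the tallest in Csmd1 (3.68). Markers of other cell types in or beside muscle held one in 8 of 25 cases (32.0%, 1.71 per 100 kb, median 38.2 kb), with 5 in Mbp of myelin and 4 each in the endothelial genes Pecam1 and Tek and the tallest in Flt1 (3.31). Liver markers held one in 2 of 13 cases (15.4%, 0.631 per 100 kb, median 10.3 kb), the tallest in Apoa1 (3.00). A site with a q of 0.01 or less was in 7 of the 20 long brain genes, 3 of the 25 other markers and 2 of the 13 liver markers. The part of other cells' chromatin in the gained sites was not tested.

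**Figure D5:**
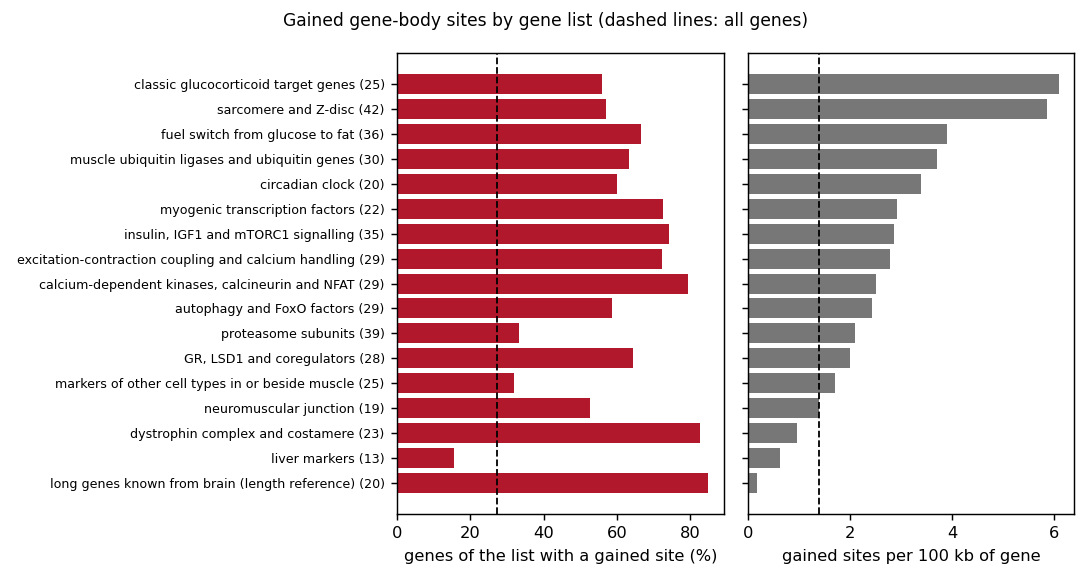
For each gene list (number of genes in brackets), the share of genes with a gained site (left, %) and the gained sites per 100 kb of gene (right), with dashed lines at the values over all genes (27.2% and 1.40). The long genes known from brain have the highest share and the lowest density (0.172), and the classic glucocorticoid targets (6.09) and sarcomere genes (5.85) are the densest. The dashed lines are not matched for gene length. Density over all genes was 2.31 at 10 to 30 kb, 1.66 at 30 to 100 kb and 1.33 at 100 to 300 kb.

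Of the genes the study used as examples or controls, Mtch1, Fbxo31, Pik3r1, Gsk3b and Pax7 each held 2 gained sites and Calm3 1. All of these sites had a q above 0.01, from 0.0122 in Mtch1 to 0.0761 in Calm3. The Pax7 sites were intronic, 1.76 and 19.7 kb from the TSS, whereas the study's control was the Pax7 promoter. Ddit4, Tfcp2, Calm2, Rap2b, Mstn and Ctsl held 0. Fed GR sites were already listed in several of them, as in Ddit4, which had both a kept site and a GR fed promoter peak.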

How the data were processed

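Processed peak lists were used, 1 per ChIP-seq library, since each group had 1 library. The input libraries were not analysed here. According to the study's methods, nuclei from muscle were fixed, chromatin was precipitated with antibodies to GR, LSD1, H3K9me1 or H3K9me2, and single-end reads were mapped (Bowtie in the methods, Bowtie2 in the peak names) with unique reads kept. Blacklisted regions were removed, by a list that the methods name for human, and broad peaks were called by MACS2 with input as control. The submitters' processing notes name bcl2fastq 2.20.0.422 and the build mm10. The methods state a q threshold of 0.01, while the deposited lists hold weaker peaks, so results are also given at 0.01. In the deposited lists the authors gave each peak a fold enrichment over input (a ratio), −log10 of its p-value and q-value and a score. Of these, the fold and q-value were used here. Read depth is not given in the files, and no value per read count was available, so precision rests on the number of peaks. The LSD1 starved list is longer than the list the study describes and was used as deposited.

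Peak midpoints were placed in exons, introns and promoters of 26180 genes and 45756 RefSeq transcripts of GRCm38, the same build as mm10. Lists shared a site where at least 1 base overlapped. Motifs were read on both strands: the GRE with at most 1 mismatch of its 12 fixed bases, the GR hexamer AGAACA, the FOXO motif TGTTTAC, the C/EBP motif TTGCNNAA, the KLF motif CCACACCC, the AP-1 motif TGANTCA, the E-box CAGCTG, the MEF3 motif TCAGGTTTC, the MCAT motif CATTCCT, the STAT5 motif TTCNNNGAA, the ERR motif TCAAGGTCA, the NRF1 motif GCGCNNGCGC and the MEF2 motif. AGAACA is also counted inside a GRE. Flanks were windows of equal length with the near edge 5 kb from each side of a site. Shares carry 95% exact (Clopper-Pearson) binomial intervals, which cover counting error only. No p-value was computed because there is 1 library per group. The scripts were tested on simulated peaks with Python 3.11.15, pandas 2.3.3 and scipy 1.17.1. The members, gene lists and rules were chosen with earlier results of these data known. Genes were named by rule: the 10 tallest sites, the 8 tallest with a GRE-like sequence, the genes with most sites in number and per length, the tallest site and the gene with most sites of each list, the genes the study uses as examples, the 3 of smallest q with an LSD1 starved peak, and the sites at the edge of the rule. Other genes were named after their values were seen, and some genes that the rule names are not reported here. Alternatives tried were stricter q or fold, other overlap and promoter rules and other mismatch limits.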

Additional observations from a re-analysis of the deposited data

How the results depend on the processing

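Of 77 values recomputed for 7 results, 42 stayed within 1.5 times (counts) or the binomial interval (shares) of the reported value and 35 moved. The causes were not tested. With a q of 0.01 or less, 1e-05 or less, or a fold of at least 5, the number of sites was 2820, 160 and 11, and the number of genes 2102, 148 and 12. At these settings, in the same order, the LSD1 starved share was 11.1%, 23.1% and 18.2%, the H3K9me2 fed share 9.68%, 15.6% and 9.09%, the H3K9me1 starved share 4.29%, 6.88% and 0%, the GRE-like share 0.709%, 3.14% and 9.09%, and the exonic share 12.1%, 8.12% and 0%. When GR fed peaks alone excluded a site, the LSD1 starved, H3K9me2 fed and exonic shares were 6.89%, 8.03% and 15.1%. When an overlap had to cover 50% of the shorter peak, the LSD1 starved, H3K9me2 fed and H3K9me1 starved shares were 4.41%, 5.48% and 1.74%. With LSD1 starved peaks of q 0.01 or less the share was 1.00%. With promoters reaching 1 kb downstream the H3K9me2 fed share was 6.52% and the exonic share 12.3%, and when any base in a promoter excluded a site the exonic share was 13.0%. No mismatch in the GRE gave 0.00693% and at most 2 mismatches 2.62%. Leaving out sites with a fold below 2.5, an alternative chosen after seeing the data, gave 4.76% for LSD1 starved and 1.62% for H3K9me1 starved peaks. Read depth is not given in the files and sets which weak sites were listed.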
